A study of Mus musculus with 12 samples.

Results

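The 5 genes followed here through single-cell ribosome profiling of mouse epidermis encode core proteins of the epithelial adherens junction: Cdh1 (E-cadherin), Cdh3 (P-cadherin), Ctnna1 (alpha-catenin), Ctnnb1 (beta-catenin) and Ctnnd1 (p120-catenin). They were chosen by symbol, and all 5 have an entry among the 22416 genes of the count files. Plakoglobin (Jup), the close relative of beta-catenin, is described beside them, with 70 more genes of adherens junctions, cadherin control and beta-catenin signalling.

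Classical cadherins cross the membrane and bind the same kind of cadherin on the neighbouring cell. Inside the cell, beta-catenin or plakoglobin holds the cadherin tail and alpha-catenin links it to actin, while p120-catenin binds nearer the membrane and keeps the cadherin at the surface. In mouse skin E-cadherin is present through the living layers, whereas P-cadherin is known from the basal layer and the hair follicle. Beta-catenin outside the junction is the effector of Wnt signalling.

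Old epidermis came from female C57Bl/6 mice, named here by postnatal day: P662 (plates 11 and 7), P722 (plate 12) and P758 (plates 2 and 4). Young epidermis came from female C57Bl/6 mice at P57 (plate 10), P59 (plate 8) and P60 (plates 1, 3 and 9). All mice received cycloheximide, which stalls ribosomes on mRNA, through the tail vein shortly before death, and back-skin epidermis was released with trypsin. Live single cells were sorted into wells, and RNA fragments left by nuclease digestion were counted per gene, so a count stands for a ribosome footprint and not for an mRNA molecule. Plates that share an age and a postnatal day are treated as 1 animal. The labels do not state this link. A further plate of P758 cells, digested with different nucleases, entered no test. Nor did a plate of Sca-1-negative cells of P57 and P679 mice, whose wells could not be assigned to an age.

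Depth differed widely between animals. The P662, P722 and P758 animals gave 70549, 12886 and 896688 counts, and the P57, P59 and P60 animals gave 5230, 12371 and 2384294 counts. One count was thus worth 191 CPM (the count scaled to a fixed library total) in the P57 animal and 0.419 CPM in the P60 animal. Of 1924 wells on the 10 old and young plates, 1906 held at least 100 counts. Clustering without the junction genes gave 15 clusters, of which 13 were named from marker genes into 8 classes. Class names are marker calls, so basal wells are wells like basal cells, and so on. Basal markers summed to between 22371 and 72482 CPM in the 6 animals, and endothelial markers to between 0 and 4.46 CPM. Plates shared 383 of the 384 well barcodes, as well indices do, and none of the 20 pairs of plates within an age held identical or noise-level equal counts (lowest chi-square per degree of freedom 2.06). Gene lengths were not used, so levels are compared between cells and animals and not between genes.

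Over all wells, no member differed between ages beyond the spread between animals. Cdh1 had 1531, 2483 and 1342 CPM in the P662, P722 and P758 animals, against 2868, 1455 and 1883 CPM in the P57, P59 and P60 animals. The ages overlapped: Cdh1 averaged 1785 ± 612 CPM across the old mice, against 2069 ± 725 CPM across the young mice (SD, 3 mice per age). The 2-sided exact permutation p was 0.6, and 0.1 is the smallest p this design allows. Cdh3 had 156, 854 and 204 CPM in the old animals in the same order, against 765, 243 and 360 CPM in the young animals. The highest Cdh3 values in each age came from shallow libraries, with 11 counts in the P722 animal and 4 counts in the P57 animal. The Cdh3 averages of 405 ± 390 CPM for old mice and 456 ± 274 CPM for young mice (SD, 3 mice per age) lay well within that spread, with an exact permutation p of 0.8.

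Both catenins with counts in every animal also overlapped between ages. Ctnna1 had 808, 1009 and 672 CPM in the P662, P722 and P758 animals, against 765, 323 and 747 CPM in the P57, P59 and P60 animals (exact permutation p = 0.4). Ctnnb1 had 737, 1009 and 724 CPM in the old animals, against 956, 647 and 874 CPM in the young animals (exact permutation p = 1). Its averages were 823 ± 161 CPM for old mice and 826 ± 160 CPM for young mice (SD). For Jup the averages were 3170 ± 466 CPM for old mice and 2564 ± 393 CPM for young mice (SD, exact permutation p = 0.2), and the ages overlapped too. In these sums over all wells, fewer cells of a type and fewer footprints per cell cannot be told apart.

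**Figure D1:**
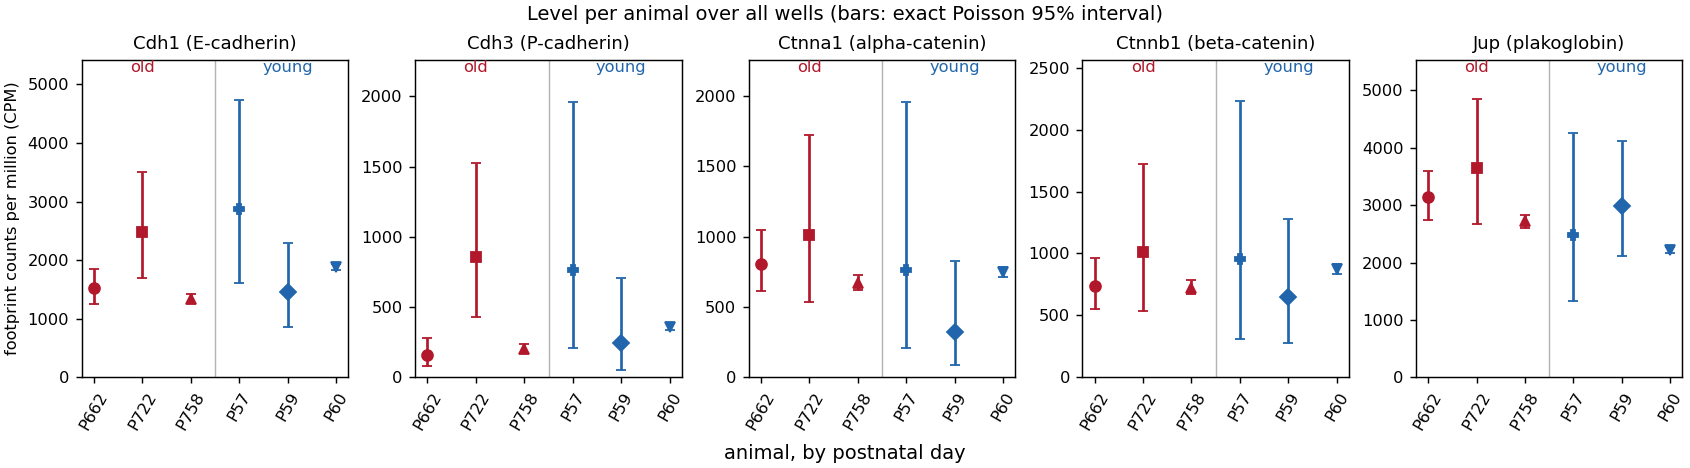
Footprint level in CPM (vertical axis) for each animal over all its wells, old animals on the left and young animals on the right of each panel; bars are exact Poisson 95% intervals. The widest bars belong to the shallow P722, P57 and P59 animals, and old and young points overlap for all 5 genes shown.

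The edgeR quasi-likelihood test over the 6 animals called 0 of 4 members tested, at a background of 0.00% of all genes tested, with 25 genes under an unadjusted p of 0.05 and 0 genes called by DESeq2. The old-minus-young log2 difference was -0.13 for Cdh1 (95% interval -0.78 to 0.51) and -0.60 for Cdh3 (95% interval -1.53 to 0.34). For Ctnna1 it was 0.37 (95% interval -0.34 to 1.09), and for Ctnnb1 it was -0.00075 (95% interval -0.60 to 0.60). All 4 had an edgeR adjusted p of 0.998. Of the 4 intervals that of Cdh3 was the widest.

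Within basal wells edgeR again called 0 of 4 members (0.00% of 377 genes tested, 10 genes under an unadjusted p of 0.05, 0 genes by DESeq2). Basal Cdh1 was 904, 2254 and 1202 CPM in the P662, P722 and P758 animals, against 1347 and 1735 CPM in the P59 and P60 animals. Basal Ctnnb1 was 587, 322 and 643 CPM in the old animals in that order, against 449 and 802 CPM in the young animals. The ages overlapped for both genes. In differentiated wells edgeR called 0 of 3 members tested (0.00% of 664 genes, 11 genes under an unadjusted p of 0.05, 0 genes by DESeq2), and Cdh3 was too sparse there to be tested. For basal Cdh3 the old-minus-young log2 difference was -0.42 (95% interval -1.34 to 0.50, edgeR adjusted p = 0.993). Its sign turned without the P60 animal (0.99), without the P662 animal (0.03) and under DESeq2 (0.05).

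Among the members, Cdh3 separated the epidermal layers most widely. In differentiated wells, which are led by Krt1 and Krt10 (the suprabasal keratins), Cdh3 had 0, 51.6, 0 and 44.8 CPM in the P662, P758, P59 and P60 animals. The basal wells of those animals had 316, 312, 225 and 515 CPM. The point values in differentiated wells were thus lower in each of the 4 animals. In the P59 animal the basal value was 1 count of 4454 (exact Poisson interval 5.68 to 1251 CPM). That animal therefore showed no direction beyond counting error. In the P662 animal, 0 of 33677 counts allow up to 89.1 CPM. That limit is 3.55-fold below the basal point value of 316 CPM. The fold leaves out the counting error of the basal value, which was 7 counts (exact Poisson interval 127 to 652 CPM). That interval lay above the exact upper limit for the differentiated wells of the P662 animal, 110 CPM. In the P59 animal, 0 of 4060 counts allow up to 739 CPM, which lies above its basal point value.

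The class model, edgeR on animal-by-class sums with the animal as a block, put Cdh3 at -3.02 on the log2 scale, differentiated minus basal wells (SE 0.33, adjusted p = 1.38e-18). It lay between -3.32 and -2.63 under every alternative run, each past the threshold. In that comparison 2 of 4 members tested were called, against 23.2% of the 3022 genes tested (11.4% higher and 11.8% lower). In the P722 animal 7 differentiated wells with 2633 counts held 2 Cdh3 counts, too few wells to enter the model. The share of wells with a Cdh3 count after each well was thinned to 500 counts was 3.24% of 309 differentiated wells (exact 95% interval 1.56 to 5.87%), against 14.0% of 601 basal wells (11.3 to 17.0%). Before thinning the shares were 7.05% and 32.5%, at median depths of 1639 and 1419 counts in the wells kept for thinning.

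Cdh3 was also ordered by the keratin balance of single wells, here the share of Krt1 and Krt10 among Krt1, Krt10, Krt5 and Krt14 counts. The bins run from 0 to 5%, 5 to 20%, 20 to 50%, 50 to 80% and 80 to 100% suprabasal keratin. Over them Cdh3 was 388, 179, 110, 120 and 29.9 CPM in the old P758 animal, and 572, 315, 138, 90.4 and 18.04 CPM in the young P60 animal. The lowest level of each animal thus lay in the most suprabasal bin, and the level was already lower in the 5 to 20% bin than in wells with almost no suprabasal keratin. The keratins that order the wells also help to name the classes, so this order is a description and not a second test.

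Jup ran the opposite way along the same axis. It was 1524, 2506, 2794, 4966 and 4262 CPM in the P758 animal, and 1612, 1900, 2604, 3672 and 4228 CPM in the P60 animal. Cdh1, Ctnna1 and Ctnnb1 showed no such course. Over the bins Cdh1 was 1154, 1918, 1698, 1376 and 1552 CPM in the P758 animal. It was 1803, 1991, 1682, 1695 and 2052 CPM in the P60 animal. Ctnna1 lay between 598 and 931 CPM in the P758 animal and between 599 and 809 CPM in the P60 animal, and Ctnnb1 between 590 and 1150 CPM and between 667 and 856 CPM. In the least suprabasal bin the old P758 animal was lower than the young P60 animal for 4 members, with counting intervals that did not overlap. Cdh1 was 1154 against 1803 CPM there, Cdh3 388 against 572 CPM, Ctnna1 634 against 809 CPM and Ctnnb1 590 against 856 CPM. These are 1 animal per age, so the differences carry no test, and the tests over animals above called none of them.

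**Figure D2:**
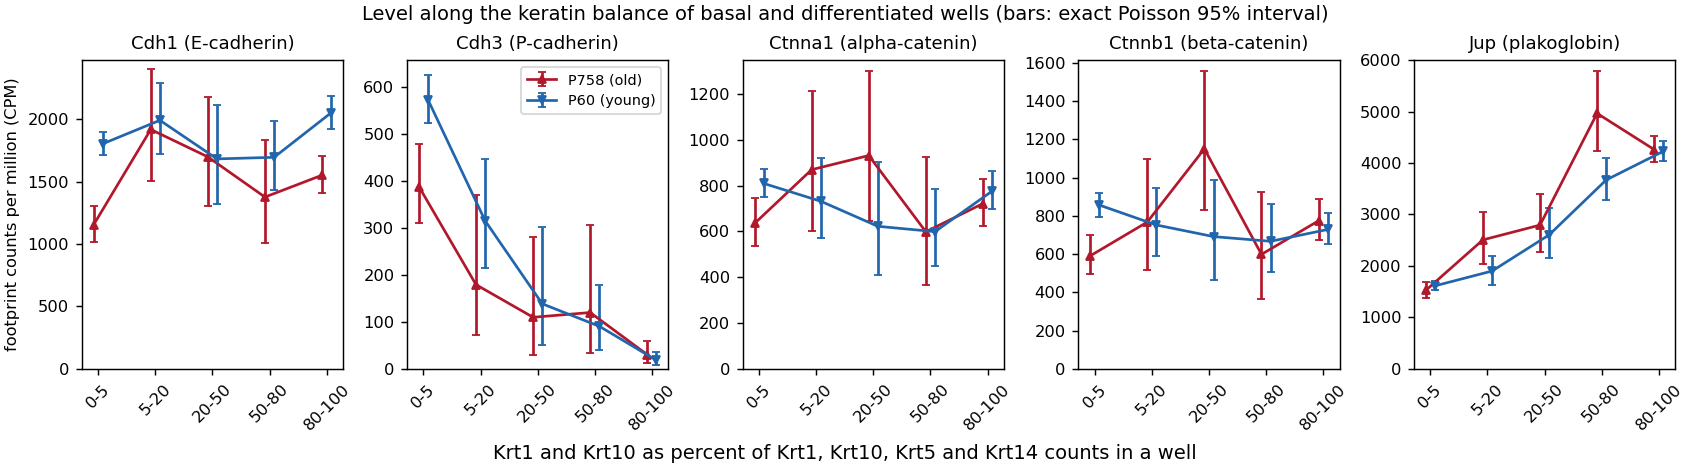
Footprint level in CPM (vertical axis) in basal and differentiated wells binned by suprabasal keratin share (horizontal axis, percent), for the old P758 and the young P60 animal; bars are exact Poisson 95% intervals. Cdh3 falls to 29.9 and 18.04 CPM in the most suprabasal bin while Jup reaches 4262 and 4228 CPM.

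E-cadherin footprints did not follow P-cadherin. Cdh1 had 1960, 1572, 1478 and 2030 CPM in differentiated wells of the P662, P758, P59 and P60 animals, against 904, 1202, 1347 and 1735 CPM in their basal wells. The point values were higher in differentiated wells in each of the 4 animals, by up to 2.17-fold in CPM (P662). In the P59 animal each of the 2 values was 6 counts. Their exact Poisson intervals were 542 to 3217 CPM in differentiated wells and 494 to 2932 CPM in basal wells. The P59 animal therefore showed no direction beyond counting error. The edgeR log2 difference was 0.68 (SE 0.26, adjusted p = 0.0368). That call was narrow: with plain totals in place of TMM scaling it was 0.42 (adjusted p = 0.215), DESeq2 gave 0.57 (adjusted p = 0.0776), and without the P60, P662 or P758 animal the edgeR adjusted p was 0.177, 0.325 or 0.185. It also missed the threshold with no filter (0.134), a mean of 20 CPM (0.0895), wells of at least 500 counts (0.254) and uncentred clustering (0.109).

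TMM factors ran from 0.728 to 1.99 between class sums. Plain totals moved the median log2 difference of all genes to -0.21 from 0.01 in differentiated wells, to -0.37 from -0.19 in proliferating wells and to -0.20 from -0.39 in T cell wells. DESeq2 put the median at 0.12 in T cell wells, 0.12 in outer bulge wells (-0.13 with TMM), 0.09 in upper follicle wells (-0.01 with TMM) and -0.02 in proliferating wells. The share of calls that were higher in differentiated wells was 49.2% with TMM, 33.9% with plain totals and 43.7% with DESeq2. In proliferating wells it was 50.6%, 34.7% and 76.3% in that order, in T cell wells 45.5%, 51.6% and 61.0%, and in outer bulge wells 50.0%, 52.4% and 64.2%.

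Neither alpha- nor beta-catenin passed the test between layers. Ctnna1 had 713, 733, 246 and 757 CPM in differentiated wells of the P662, P758, P59 and P60 animals, against 904, 646, 449 and 773 CPM in their basal wells. Ctnnb1 had 683, 768, 739 and 742 CPM in differentiated wells of those animals, against 587, 643, 449 and 802 CPM in basal wells. Neither gene moved one way in all 4 animals. The edgeR log2 differences were 0.18 (95% interval -0.31 to 0.66, adjusted p = 0.716) for Ctnna1 and 0.31 (95% interval -0.19 to 0.82, adjusted p = 0.463) for Ctnnb1, and the Ctnna1 value turned to -0.07 with plain totals.

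Plakoglobin, which serves both adherens junctions and desmosomes, was higher in differentiated wells. Jup had 4662, 4351, 4680 and 4057 CPM in differentiated wells of the P662, P758, P59 and P60 animals, against 1672, 1662, 2470 and 1622 CPM in basal wells. The groups did not overlap, and the log2 difference was 1.53 (SE 0.26, edgeR adjusted p = 9.67e-08). It stayed between 1.29 and 1.59 under the alternatives run.

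Beta-catenin and plakoglobin are related armadillo proteins, and RefSeq promoter windows of both genes are shown (GRCm38.p6, 5′ to 3′ on the gene's strand). Each window runs from 250 bases before to 50 after an annotated start. Any link between these sequences and the footprint levels was not tested. Capitals mark matches to the TATA box (TATAAA) and the GC box (GGGCGG) on either strand. The Ctnnb1 window is chr9:120933328-120933627 on the plus strand and the Jup window is chr11:100397741-100398040 on the minus strand.
Ctnnb1: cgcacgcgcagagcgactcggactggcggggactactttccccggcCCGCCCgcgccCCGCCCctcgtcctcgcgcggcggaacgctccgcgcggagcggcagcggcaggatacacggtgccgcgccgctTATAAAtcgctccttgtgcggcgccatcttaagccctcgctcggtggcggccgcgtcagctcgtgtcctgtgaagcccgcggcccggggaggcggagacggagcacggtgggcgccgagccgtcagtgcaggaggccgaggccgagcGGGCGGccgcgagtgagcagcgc
Jup: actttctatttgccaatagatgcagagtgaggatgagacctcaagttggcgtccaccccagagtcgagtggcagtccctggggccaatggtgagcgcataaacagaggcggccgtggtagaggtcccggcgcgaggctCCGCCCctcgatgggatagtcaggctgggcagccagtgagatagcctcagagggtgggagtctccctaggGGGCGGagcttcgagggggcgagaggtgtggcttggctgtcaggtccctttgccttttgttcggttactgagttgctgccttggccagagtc

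The Ctnnb1 window held 3 GC boxes, 1 TATA box and 51 CpG dinucleotides at 75.0% G and C. The Jup window held 2 GC boxes, 0 TATA boxes and 14 CpG dinucleotides at 60.7% G and C. Over all 32851 windows the median was 7 CpG dinucleotides, 35.7% held a GC box and 13.6% held a TATA box. A second Ctnnb1 window, from the start at the 5′ end of the annotated gene, overlaps the one shown and held 3 GC boxes and 0 TATA boxes. The TATA match in the window shown lies past that 5′ end and well before the start of its own window. Whether any match acts as a promoter element was not tested. On GRCm38.p6, Cdh3 (chr8:106510852-106556911) and Cdh1 (chr8:106603350-106670247) lie close together on one chromosome, Ctnnb1 spans chr9:120933400-120960507 and Ctnnd1 spans chr2:84587096-84658977.

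In the upper hair follicle Cdh1 was the member that passed the edgeR test. Upper hair follicle wells, led by Krt79 and Krt17 but also by the granular genes Flg and Lor, had 2032, 1846 and 3316 CPM of Cdh1 in the P662, P758 and P60 animals, against 904, 1202 and 1735 CPM in their basal wells. All 3 animals were higher in the follicle, by 1.54- to 2.25-fold. The edgeR log2 difference was 0.80 (SE 0.27, adjusted p = 0.0168). It was the only call among 4 members tested, against 21.3% of 3022 genes (11.2% higher and 10.1% lower). The edgeR call was lost without the P60 animal (adjusted p = 0.260), the P758 animal (0.140) or the filter on low counts (0.125).

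Ctnnb1 was also higher in the upper follicle of each of those 3 animals, at 1084, 959 and 1253 CPM, against 587, 643 and 802 CPM in basal wells. Its log2 difference of 0.65 missed the threshold (SE 0.27, edgeR adjusted p = 0.0625), and passed it under 7 alternatives, among them DESeq2 (adjusted p = 0.00349) and sums of at least 20000 counts (adjusted p = 0.00882). Cdh3 in the upper follicle had 271, 275 and 493 CPM in those animals, against 316, 312 and 515 CPM in basal wells. The P758 and P60 values were close to basal. In the P662 animal the follicle value was 2 counts (exact 95% interval 32.8 to 979 CPM), too few to place against basal. The log2 difference of -0.07 had a 95% interval of -0.61 to 0.48 (edgeR adjusted p = 0.933). Ctnna1 gave 0.21 (95% interval -0.31 to 0.73, edgeR adjusted p = 0.707). For age within the upper follicle, Cdh1 was 2032, 3158 and 1846 CPM in the P662, P722 and P758 animals, against 2586, 2405 and 3316 CPM in the P57, P59 and P60 animals, and the ages overlapped. The P722, P57 and P59 values were 9, 3 and 5 counts, from 9, 4 and 7 wells. Age was not tested within this class.

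Outer bulge wells, led by Cd34 and Postn, came mainly from 2 animals. Cdh3 had 174 and 226 CPM in outer bulge wells of the P758 and P60 animals, against 312 and 515 CPM in their basal wells. The log2 difference of -1.07 missed the threshold (SE 0.43, edgeR adjusted p = 0.0713) and passed it under 5 alternatives, with adjusted p between 0.0178 and 0.0374, 1 of them without the P59 animal (0.0273). Cdh1 pointed different ways in the 2 animals, with 1304 and 921 CPM in the bulge against 1202 and 1735 CPM in basal wells. No member was called in this comparison (0 of 4 by edgeR and 0 by DESeq2, against 15.2% of 3022 genes called by edgeR, 7.61% higher and 7.61% lower); Cdh3 and no other had an unadjusted p under 0.05.

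**Figure D3:**
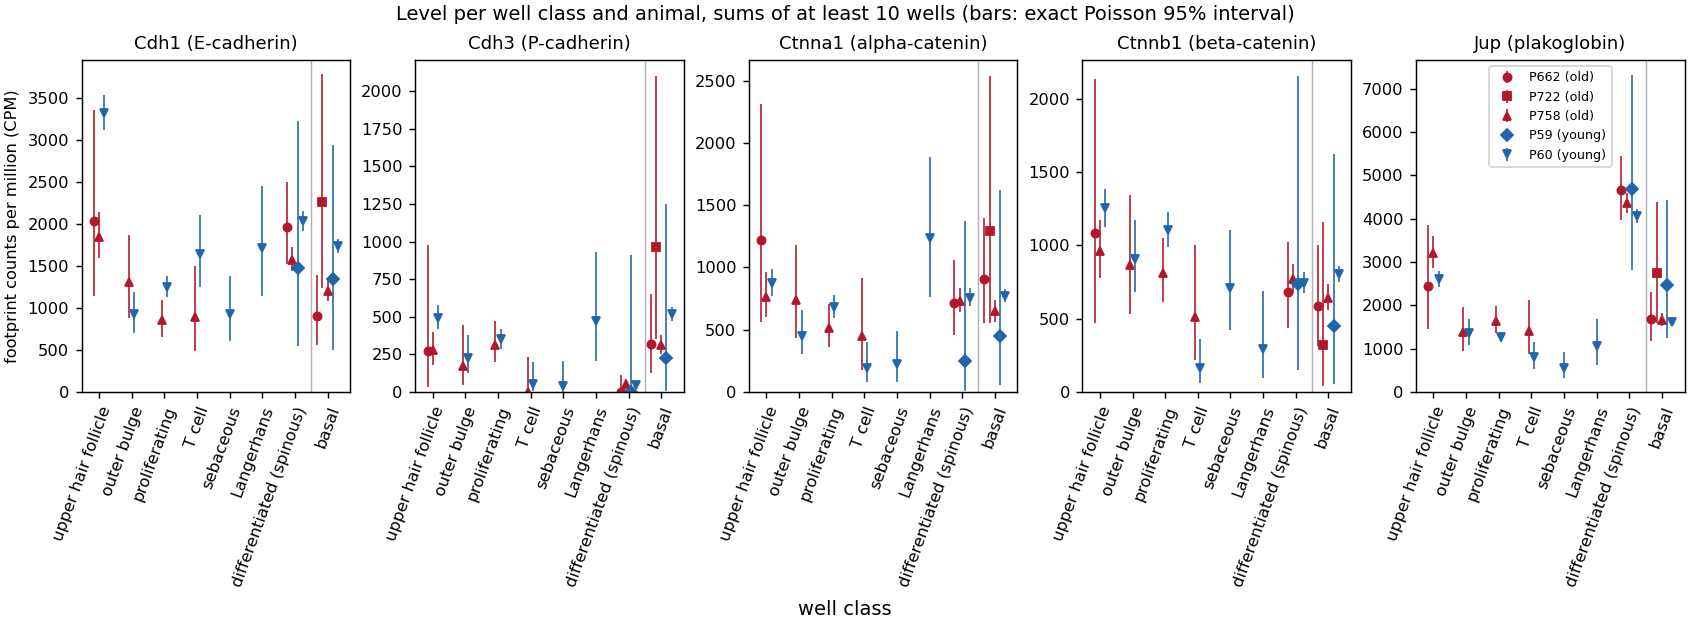
Footprint level in CPM (vertical axis) per well class for each animal with at least 10 wells of that class, basal wells at the right of each panel; symbols mark animals, red old and blue young, and bars are exact Poisson 95% intervals. Cdh1 is highest in the upper follicle of the P60 animal at 3316 CPM, and Cdh3 is lowest in differentiated, T cell and sebaceous wells.

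Proliferating wells, in clusters led by replication histones or by mitotic genes such as Cenpf, showed no called member by edgeR (0 of 4, against 17.7% of 3022 genes, 8.97% higher and 8.77% lower, and 1 at an unadjusted p under 0.05). Ctnnb1 was nearest, at 808 and 1102 CPM in proliferating wells of the P758 and P60 animals, against 643 and 802 CPM in basal wells. Its log2 difference was 0.58 (SE 0.28, edgeR adjusted p = 0.155), and DESeq2 called it (0.74, adjusted p = 0.0102). Cdh1 was lower in both animals, at 851 and 1245 CPM against 1202 and 1735 CPM, with a log2 difference of -0.29 (95% interval -0.88 to 0.31, edgeR adjusted p = 0.601).

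Wells of epidermal T cells, led by Cd3g, Trdv4 and Itgae (the alpha chain of an integrin that binds E-cadherin), split the members. Cdh1 stayed at 891 and 1635 CPM in T cell wells of the P758 and P60 animals, against 1202 and 1735 CPM in basal wells. The log2 difference was -0.27 (95% interval -0.94 to 0.40, edgeR adjusted p = 0.613). The other tested members fell, 3 of 4 against a background of 29.7% of 3022 genes (13.5% higher and 16.2% lower). Ctnna1 had 446 and 194 CPM in T cell wells against 646 and 773 CPM in basal wells (log2 difference -1.52, SE 0.45, edgeR adjusted p = 0.00358). Ctnnb1 had 509 and 166 CPM against 643 and 802 CPM (log2 difference -1.48, SE 0.45, edgeR adjusted p = 0.00518). In the P758 animal these catenin values were 7 counts of Ctnna1 and 8 counts of Ctnnb1. Their exact 95% intervals (179 to 918 and 220 to 1003 CPM) included the basal values. The fall of both catenins beyond counting error was thus seen in the P60 animal alone.

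Cdh3 in T cell wells was 0 of 15712 counts in the P758 animal, which allows up to 191 CPM. That limit is 1.63-fold below the basal point value of 312 CPM (exact 95% interval 254 to 379 CPM). The fold leaves out the counting error of the basal value. In the P60 animal Cdh3 was 2 counts, or 55.4 CPM (exact 95% interval 6.71 to 200 CPM), against 515 CPM in basal wells. The log2 difference was -3.62 (SE 0.75, edgeR adjusted p = 1.19e-05). Pooled over animals, Krt5 was 1616 CPM in T cell wells and 32579 CPM in basal wells. Dsp was 1293 and 10316 CPM in that order, and Jup 1008 and 1641.5 CPM. Pooled Cdh1 was 1445 CPM in T cell wells and 1598 CPM in basal wells. The part of keratinocyte RNA in the Cdh1 of T cell wells was not tested. After thinning to 500 counts, Krt5 was found in 38.5% of 26 T cell wells and 98.8% of 601 basal wells, and Cdh1 in 42.3% and 42.1% of them (unthinned 34.8% and 61.4%), at median depths of 1382 and 1419 counts.

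Langerhans and sebaceous wells reached 10 wells in the P60 animal alone, so they carry no test. Langerhans cells are known to bind keratinocytes through E-cadherin. In 12 Langerhans wells Cdh1 was 1707 CPM (exact 95% interval 1143 to 2452 CPM), against 1735 CPM in the basal wells of that animal. Those wells also carried basal keratinocyte RNA, with Krt5 at 18677 CPM over all 18 Langerhans wells, and the part of that RNA in their Cdh1 was not tested. In 12 sebaceous wells Cdh1 was 930 CPM, Cdh3 37.2 CPM (1 count) and Ctnna1 223 CPM, against 1735, 515 and 773 CPM in basal wells, with Krt5 at 1276 CPM over all 26 sebaceous wells.

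**Figure D4:**
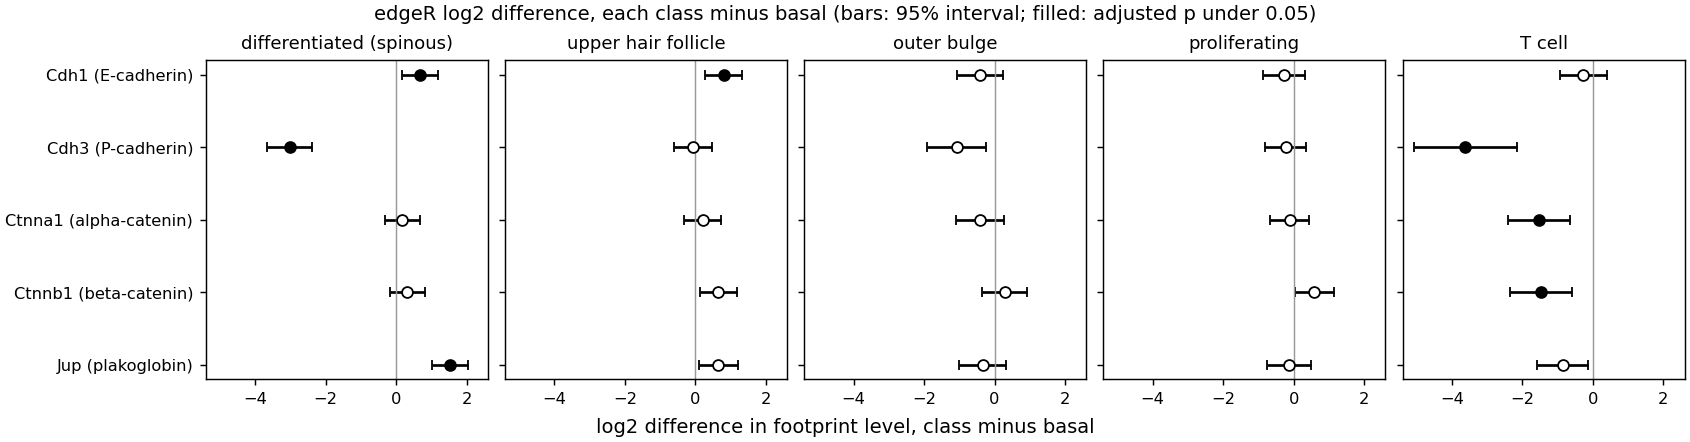
edgeR log2 difference in footprint level (horizontal axis), each class minus basal wells, for 4 members and Jup; bars are 95% intervals and filled points have an adjusted p under 0.05. Cdh3 is at -3.02 in differentiated and -3.62 in T cell wells, and Cdh1 is above 0 in differentiated and upper follicle wells.

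Basal wells were not uniform. One basal cluster, led by Igfbp3 and Smoc2, had 1627 CPM of Cdh1 in the P758 animal and 2204 CPM in the P60 animal. The other basal clusters lay between 769 and 1024 CPM in the P758 animal and between 866 and 1436 CPM in the P60 animal. Cdh3 showed the same order, with 440 and 677 CPM in that cluster of the P758 and P60 animals, against 162 to 258 CPM and 323 to 343 CPM in the others. Ctnna1 (805 and 877 CPM), Ctnnb1 (872 and 978 CPM) and Jup (1992 and 1966 CPM) were also highest in that cluster among the basal clusters of both animals. The cluster was also the deepest, with a median of 2142 counts per well against 637 to 1470 counts, and the part of depth in these levels was not tested. Clusters were drawn from the same wells, so the order is a description.

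The 2 differentiated clusters differed in Cdh3 as well. In the cluster led by Krt78 and Krt77, Cdh3 was 29.6 CPM in the P758 animal and 11.5 CPM in the P60 animal, against 78.2 and 74.2 CPM in the cluster led by Krt1 and Skint6. Jup was 4897 and 4860 CPM in the first of these clusters against 3696 and 3349 CPM in the second. Cdh3 was thus lower and Jup higher in the first cluster in both animals.

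p120-catenin had few counts in the files, and the count tables do not show whether its reads were lost in alignment or counting. Ctnnd1 had 11 counts among 3530267 counts of all 12 plates, each in a different well of 5 plates, and 11060 genes had more. The P758 animal held 3 of these counts (3.35 CPM) and the P60 animal 6 (2.52 CPM), and the other 4 animals held none, where 0 counts allow between 42.5 CPM (P662) and 574 CPM (P57). Its relatives had more counts, with 642 for Pkp4, 343 for Arvcf and 98 for Ctnnd2. Ctnnd1 was too sparse for any of these tests.

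Both Pkp4 and Ctnnd2 differed between classes. Pkp4 fell in differentiated wells (log2 difference -1.73, SE 0.31, edgeR adjusted p = 3.93e-07). Ctnnd2 (delta-catenin, best known from neurons) had 18 counts, or 1146 CPM, in T cell wells of the P758 animal and 44 counts, or 1219 CPM, in those of the P60 animal. Basal wells of the 5 animals held 1 Ctnnd2 count in all, and the 12 Langerhans wells of the P60 animal held 12 counts, or 706 CPM. The T cell difference was called by edgeR (adjusted p = 1.82e-34), and its fold is not given because basal wells were at 0 counts in 4 of 5 animals.

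Of 11 other cadherins and catenins listed, 6 were tested between differentiated and basal wells, and 4 fell and 0 rose. Over all 3022 genes tested, 11.8% fell and 11.4% rose. The median log2 difference of the list was -1.39 beside 0.01 over all genes tested. On the log2 scale Cdh13 (T-cadherin, which lacks a cytoplasmic tail) was at -5.23 (SE 0.41) with an edgeR adjusted p of 2.67e-35, and Ctnnal1 (alpha-catulin) at -5.38 (SE 0.51) with 4.18e-24. Cdh13 was 29.7, 19.4, 0 and 3.59 CPM in differentiated wells of the P662, P758, P59 and P60 animals, against 316, 507, 0 and 456 CPM in basal wells. Cdh4 (R-cadherin, -1.05) and Pkp4 fell less, and neither Arvcf (log2 difference -0.05, edgeR adjusted p = 0.974) nor Ctnnd2 (1.78, edgeR adjusted p = 0.299) passed the test.

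Among nectins, afadin and actin linkers, 16 of 19 were tested and split in differentiated wells, with 4 higher and 5 lower. Over all 3022 genes tested, 11.4% were higher and 11.8% lower. The median log2 difference was 0.12, against 0.01 over all genes. On the higher side were Nectin4 at 4.61, Nectin1 at 0.83, Afdn (afadin, which joins nectins to actin) at 0.73 and Tjp1 (ZO-1) at 0.66 on the log2 scale. On the lower side were Actn1 at -2.94, Zyx at -1.81, Flna at -1.56, Ajuba at -1.33 and Lima1 at -0.76. Vinculin (Vcl), which binds alpha-catenin, did not pass the test (log2 difference 0.37, edgeR adjusted p = 0.376).

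Some linkers were higher in follicle classes than in basal wells. Afdn was higher in the upper follicle (log2 difference 1.40, edgeR adjusted p = 1.08e-06) and in the outer bulge (1.60, edgeR adjusted p = 7.03e-06). Actn1 (alpha-actinin) was higher in the outer bulge (3.44, edgeR adjusted p = 3.43e-22), at 1695 and 953 CPM in the P758 and P60 animals, against 102 and 113 CPM in basal wells. Plekha7, a p120-binding protein, was higher in both follicle classes and in T cell wells. In the upper follicle 4 linkers rose and 1 fell, and in the outer bulge 3 rose and 1 fell, of 16 tested in each. Over all 3022 genes tested, 11.2% rose and 10.1% fell in the upper follicle. In the outer bulge 7.61% rose and 7.61% fell.

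Of 6 epithelial transcription and splicing regulators 5 were tested, and 4 rose in differentiated wells: Grhl3 at 3.10, Grhl1 at 2.96, Ovol1 at 2.53 and Esrp1 at 0.80 on the log2 scale. In this comparison 11.4% of all genes tested were higher and 11.8% lower. Of the beta-catenin destruction complex and partners 5 of 11 were tested and 0 were called in differentiated wells (edgeR), the lowest adjusted p being that of Bcl9l at 0.0931. Of Wnt and beta-catenin target genes 6 of 13 were tested. Lgr6 was lower at -5.12 on the log2 scale (edgeR adjusted p = 5.16e-34) and Dkk3 at -2.28 (edgeR adjusted p = 0.0454), while Axin2, a general Wnt target, gave -0.40 (edgeR adjusted p = 0.379).

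Desmosomal genes were higher in differentiated wells along with Jup. All 8 listed genes were tested and 7 rose in differentiated wells (median log2 difference 1.58), where 11.4% of all genes tested rose. Dsp was at 1.07, Perp at 1.63 and Pkp1 at 1.29 on the log2 scale, and Pkp3 was not past the threshold (0.49, edgeR adjusted p = 0.150). Dsg1a, Dsg1b and Dsc1 are themselves markers of the class, and desmosomal genes other than Jup were not kept out of the clustering, so their counts are a description. Dsg1a and Dsg1b are near-identical copies whose reads cannot be split with certainty.

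**Figure D5:**
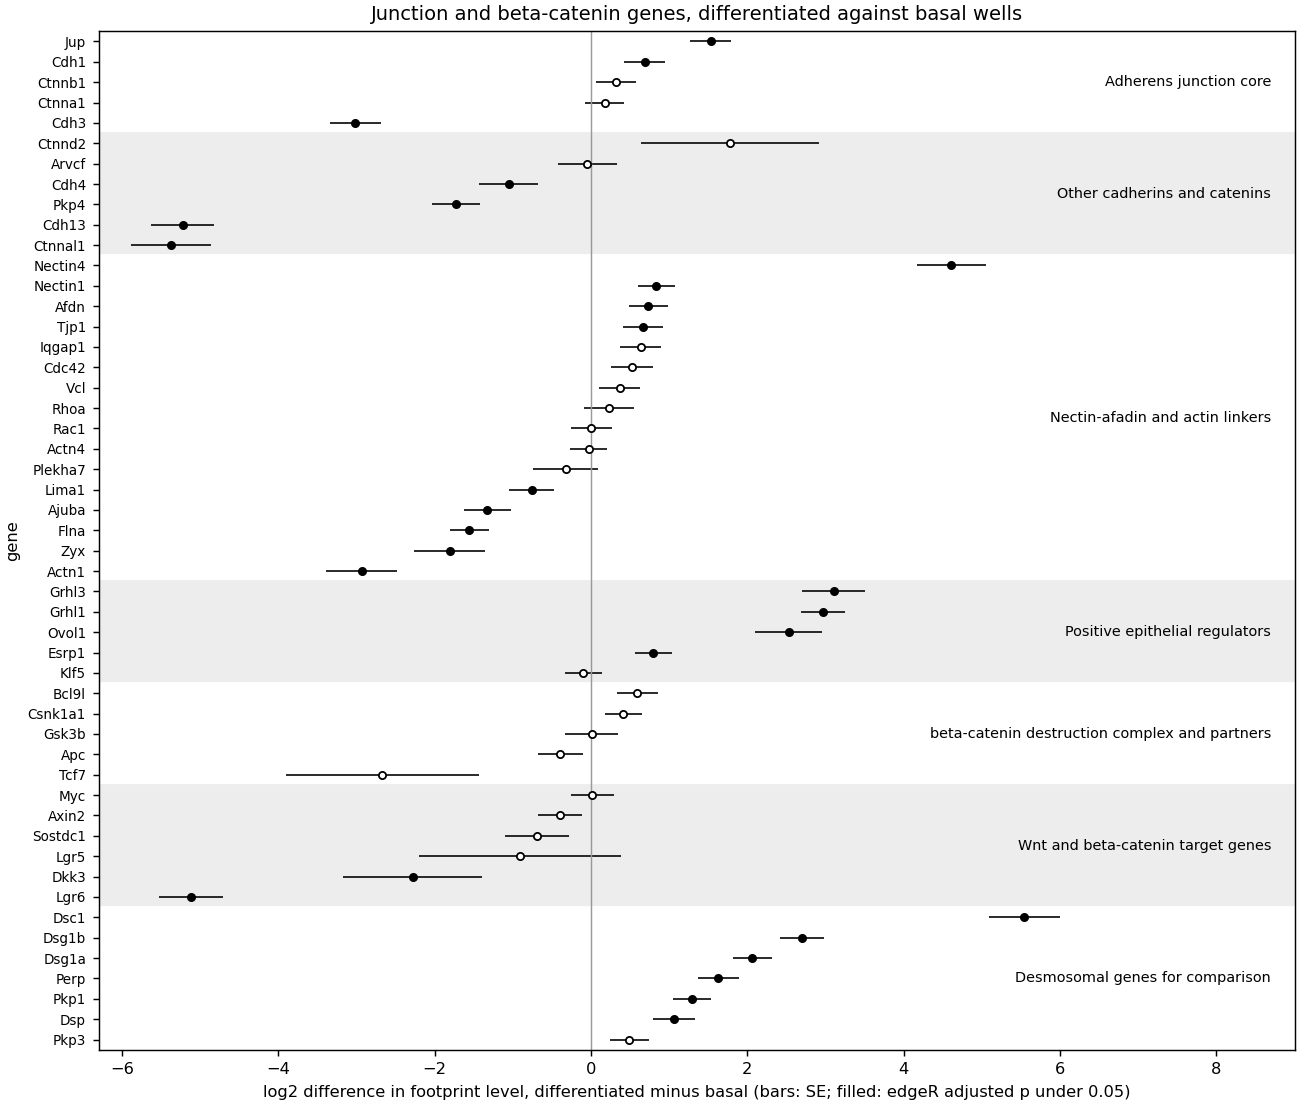
edgeR log2 difference in footprint level, differentiated minus basal wells (horizontal axis), for the tested genes of the lists described here, grouped by list (shading); bars are standard errors and filled points have an adjusted p under 0.05. Cdh3, Cdh13 and Ctnnal1 lie far below 0, while Jup and the 7 other desmosomal genes lie above it, Pkp3 as an open point.

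Across 16 animal-by-class sums and 4532 genes, the genes most like each member were listed by Pearson correlation of log2(CPM + 10). Cdh3 was nearest to Lamb3 (r = 0.94), Itgb4 (0.94) and Frem2 (0.92), which encode basement membrane attachment proteins. Cdh1 had no such close company, with Cst6 (0.76), Hip1r (0.74) and Stag2 (0.74) nearest. Ctnna1 was nearest to Tpbg, Bach1 and Dock6 (0.88 to 0.89), and Ctnnb1 to Uqcc2, Gtf2f1 and Mtus1 (0.88 each). Among the 4 members themselves the correlations ran from 0.08 (Cdh1 with Ctnnb1) to 0.42 (Cdh3 with Ctnna1), with Cdh1 and Cdh3 at 0.10. The sums share animals and plates, and Lamb3 and Itgb4 are basal markers that named the classes, so these values describe the sums and carry no p.

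On the plates kept out of the tests, Sca-1-negative cells of both ages (52 wells, 17377 counts) held 1036 CPM of Cdh1, 1151 CPM of Ctnna1 and 633 CPM of Ctnnb1. Cdh3 was at 0 of 17377 counts there, which allows up to 173 CPM. That plate carried 12142 CPM of Langerhans markers and 13178 CPM of upper follicle markers, with Krt5 at 3568 CPM. The nuclease test plate (230 wells, 128007 counts) held 945 CPM of Cdh1, 227 CPM of Cdh3, 516 CPM of Ctnna1 and 625 CPM of Ctnnb1.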

How the data were processed

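The authors deposited raw footprint counts per gene and well for 12 plates. Per the submitters' processing notes, fastp, Bowtie2, STAR, UMI-tools and featureCounts were used with GRCm38.p6. Neither their order nor their settings are stated there.

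The 5 members and all lists were chosen with earlier results of these data known. Wells of at least 100 counts were kept, and 3 wells with melanocyte or fibroblast markers were set aside. The remaining 1903 wells were clustered with scanpy 1.11.5 (1500 variable genes; centring by plate; 15 principal components; 15 nearest neighbours; Leiden at resolution 1), leaving out 76 junction and beta-catenin genes. Clusters were named from marker lists, by rules settled after the clusters were first seen. Doublets were not called; wells were sorted as single cells.

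Counts were summed per animal, or per animal and class (at least 10 wells), and tested with edgeR 4.0.16 (quasi-likelihood, TMM, filterByExpr, limma 3.58.1, R 4.3.3) with Benjamini-Hochberg adjustment at 0.05. Class sums had the animal as a block. DESeq2 1.42.0 was an alternative, as were other filters, scalings, clusterings and left-out animals. The tests were checked on simulated data. Poisson and binomial intervals (95%) and the floor of 3 counts cover counting error only. The 95% intervals of log2 differences are normal approximations from the SE, which are too narrow with few animals. Between-animal p-values rest on the assumption that plates of one day are 1 animal. Named genes are the members, listed genes averaging at least 100 CPM or passing a test, and the 3 genes most correlated with each member. The results of 1 listed gene group are not reported here.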

Additional observations from a re-analysis of the deposited data

Results flagged for a closer look

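Both plates kept out of the tests held member footprints above the limit that a count of 0 allows. The plate of Sca-1-negative cells of both ages held 18 counts of Cdh1, 20 counts of Ctnna1 and 11 counts of Ctnnb1. The nuclease test plate held 121 counts of Cdh1, 29 counts of Cdh3, 66 counts of Ctnna1 and 80 counts of Ctnnb1. Neither plate was tested against the others, and the nuclease conditions of single wells were not used.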

How the results depend on the processing

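No member passed the age test in any alternative run. Over all wells 111 genes were called for age with no filter, and 45 genes where a mean of 20 CPM was required. Under these filters Cdh1 was 0.12 and 0.21 and Ctnnb1 0.21 and 0.30 (log2, old minus young), and with wells of at least 500 counts Ctnna1 was -0.026. Leaving out 1 animal at a time gave Cdh1 from -0.28 to 0.037 and Ctnnb1 from -0.099 to 0.042. In basal wells 33 genes were called without a filter, 16 at 20 CPM, 10 with wells of at least 500 counts, and 0 to 16 with 1 animal left out. There Cdh3 was 0.053 under DESeq2, Jup 0.075 without a filter and 0.15 at 20 CPM, and Ctnna1 -0.61 with wells of at least 500 counts. With 1 animal left out Cdh1 ran from -0.75 to 0.085, Cdh3 from -0.64 to 0.99, Ctnna1 from -0.18 to 1.02 and Jup from -0.24 to 0.20. In differentiated wells 7 genes were called without a filter, 4 at 20 CPM, 2 with plain totals, 20 with wells of at least 500 counts, 1 without centring, and 0 to 15 with 1 animal left out. Ctnnb1 was -0.077 with wells of at least 500 counts, and with 1 animal left out Cdh1 ran from -0.57 to 0.76, Ctnna1 from -0.27 to 2.18, Ctnnb1 from -0.23 to 0.62 and Jup from -0.21 to 0.48.

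Between differentiated and basal wells 1 member (Cdh3) was called under DESeq2, without a filter, at 20 CPM, with plain totals, with wells of at least 500 counts and without centring, and 1 to 2 with 1 animal left out. Genes called numbered 1195 without a filter, 1166 at 20 CPM, 1122 with sums of at least 20000 counts, 1207 with wells of at least 500 counts and 273 to 950 with 1 animal left out, and Ctnna1 was -0.069 with plain totals. In the outer bulge DESeq2 called 299 genes, 1 member was called without a filter, at 20 CPM and with sums of at least 20 wells or 20000 counts, 0 to 1 with 1 animal left out, and Ctnnb1 was -0.14 without a filter. In proliferating wells 1 member was called under DESeq2, with sums of at least 20000 counts, at resolution 0.5 and without centring, and 0 to 1 with 1 animal left out. Genes called there numbered 253 under DESeq2, 842 with sums of at least 20000 counts and 1112 with wells of at least 500 counts. Ctnna1 was 0.056 under DESeq2 and 0.036 at resolution 0.5, and Jup was 0.065 under DESeq2, 0.047 with sums of at least 20000 counts and 0.0077 with wells of at least 500 counts. With 1 animal left out Ctnna1 ran from -0.0098 to 0.065 and Jup from -0.025 to 0.043. Cdh1 in T cell wells was 0.11 under DESeq2. In the upper follicle 2 members were called under DESeq2, with sums of at least 20 wells or 20000 counts, with wells of at least 500 counts, at resolution 0.5 and without centring, 0 without a filter, and 0 to 2 with 1 animal left out. Genes called there numbered 391 under DESeq2, 1006 with wells of at least 500 counts and 228 to 838 with 1 animal left out, and Cdh3 was 0.012 with sums of at least 20000 counts and 0.11 with wells of at least 500 counts. The cause was not tested for any of these.

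Plain totals and sums of at least 20000 counts were added after seeing the data. The T cell, outer bulge and proliferating comparisons gave no value without P60 or P758, which leaves 1 animal, and T cell wells gave none with sums of at least 20 wells or 20000 counts, or with wells of at least 500 counts. No paired analysis was possible because the ages share no plate number that marks a common animal, and class comparisons already have the animal as a block. Depth limits the P57, P59 and P722 animals, with 5230 to 12886 counts each.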
